A study of Mus musculus with 4 samples.

Results

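The p53 pathway was read in F9 cells through 35 genes: p53 itself (Trp53), its regulators and its established targets of cell cycle arrest, apoptosis, DNA repair and metabolism. A probe set of the array was taken when the platform annotation gave exactly 1 of these symbols, which found 63 of the 45037 probe sets tested. They covered 33 of the 35 genes, out of 18193 genes with a probe set of their own. Trp53 and Bax were not analysed here. The list was chosen by gene function, but with earlier results of these arrays known.

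The cells were F9, a mouse line of embryonal carcinoma, a tumour whose stem cells are like those of the early embryo. All had been infected with pLKO.1 lentivirus and selected as stable cells with puromycin. The shPhf19 group carried a short hairpin RNA against Phf19, and the shVector group carried the control vector. Each group had 2 arrays, called biological replicates in the labels and cell lines in the design text. Neither the number of hairpin sequences nor separate infections are stated, so the p-values measure only the spread between these arrays.

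p53 is a transcription factor held at a low level by the ubiquitin ligase Mdm2 and its partner Mdm4. DNA damage and other stresses free it, and it then binds response elements in genes that stop the cell cycle, start apoptosis, repair DNA or feed back on p53 itself, Mdm2 among them. Embryonal carcinoma cells are known for abundant p53 protein. The arrays measure transcripts and say nothing of the amount or modification of the p53 protein.

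p53 binds DNA as a pair of 10-base consensus elements separated by a short spacer. Promoter windows from RefSeq (build GRCm38.p6, from 250 bases before to 50 after a transcript start) were listed for 27 of the 35 genes, 36 windows in all. The consensus element, whose letters read the same on both strands, was found in 13 of the 36 windows (36.1%). It was found in 8.36% of all 32851 windows, and in 7.22% of the 18110 windows of genes with a probe set. The pair with at most 13 bases between its elements was found in 1 of the 36 windows, against 0.0731% of all windows. CATG, a core that many response elements hold, was in 27.8% of the list's windows and 61.1% of all windows, on either strand. The list's windows had a median GC content of 62.7% against 52.7% over all windows, and these shares were not matched for it. These matches describe letters, not binding. The 5 stretches printed here come from genes whose values are followed further on, 2 with a rise in shPhf19 cells and 3 without one. Capitals mark the element, and in Cdkn1a both elements with the bases between them.
Ccng1, chr11:40755437-40755496, minus strand: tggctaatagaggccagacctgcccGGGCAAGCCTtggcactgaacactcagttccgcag
Ddit4l, chr3:137623557-137623616, plus strand: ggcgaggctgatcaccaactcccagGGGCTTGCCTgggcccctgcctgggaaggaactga
Mdm2, chr10:117710910-117710969, minus strand: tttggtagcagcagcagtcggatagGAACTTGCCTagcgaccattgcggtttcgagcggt
Cdkn1a, chr17:29090881-29090962, plus strand: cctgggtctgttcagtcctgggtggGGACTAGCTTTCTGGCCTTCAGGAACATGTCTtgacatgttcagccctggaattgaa
Gadd45a, chr6:67037413-67037472, minus strand: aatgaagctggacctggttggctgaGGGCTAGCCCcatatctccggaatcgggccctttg

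All 5 elements lie before the transcript start. The Ccng1 element runs from 185 to 176 bases before it, that of Mdm2 from 186 to 177, that of Ddit4l from 90 to 81 and that of Gadd45a from 40 to 31. The Cdkn1a pair lies from 73 to 42 bases before the more upstream of its 2 listed starts. Among genes with a probe set called in shPhf19 cells, 5 windows were listed and 2 held the element. Among the measured genes without a call it was 9 of 29 windows, so the letters were present in both kinds of gene.

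The targeted gene Phf19, which encodes a Polycomb-like partner of Polycomb repressive complex 2, checks the labels. By probe set 1427920_at its log2 expression was 6.07 and 6.14 in shVector and 5.08 and 5.17 in shPhf19 (change -0.98 ± 0.10 SE; limma adjusted p = 0.0108). Its other probe set, 1431857_at, had the higher mean but overlapped between the groups (-0.06 ± 0.12, limma adjusted p = 0.928). By its probe set of highest mean, which stands for each gene below, Phf19 thus did not pass an adjusted p of 0.05. All values from here on are log2 expression, replicate 1 before replicate 2, and a change is shPhf19 minus shVector with limma's standard error. A call is an adjusted p under 0.05 over all 45037 probe sets.

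In shPhf19 cells 6 of the 33 genes rose and none fell. The 6 were Ccng1, Plk2, Trp53inp1, Eda2r, Ddit4l and Dcxr, by 1.44-fold to 2.04-fold. Over all genes 1.15% rose and 0.863% fell by the same rule, with each gene represented by its probe set of highest mean. By probe sets, 7 of 63 rose (0.83% of all) and none fell (0.582% of all). For the 0 falls, 2 of the 33 genes, Gadd45a and Ddb2, were lower at an unadjusted p under 0.05 (7.35% of all genes). Another 13 genes were higher at an unadjusted p under 0.05 without passing, which with the 6 makes 19 of 33, against 7.73% of all genes. The shares over all genes were not matched for expression level. The median level was 8.73 for the 33 genes and 6.92 over all genes.

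Most of the genes without a call also had a change above 0. Of all 33 genes, 27 had a change above 0 and 6 below, and the median change was 0.27, against 0.00 over all 18193 genes. In 24 genes both shPhf19 arrays lay above both shVector arrays (21.3% of all genes), and in 3 both lay below (22.2% of all genes). The median over the 33 genes was 0.27 and 0.29 for shPhf19 replicate 1 against shVector replicates 1 and 2, and 0.20 and 0.26 for shPhf19 replicate 2. Between replicates it was -0.11 in shVector (replicate 2 minus replicate 1) and -0.06 in shPhf19. Each of the 4 pairings of a shPhf19 with a shVector array thus gave a positive median larger than either replicate difference.

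No member was called when any 1 array was left out. Limma then called none of the 63 probe sets and none of all 45037. At an unadjusted p under 0.05, 20 of the 33 genes were higher and 2 lower without shVector replicate 1 (8.70% and 8.49% of all genes in the same fit). It was 15 higher and 2 lower without shVector replicate 2 (7.79% and 6.99% of all genes). Without shPhf19 replicate 1 it was 10 higher and 1 lower (3.61% and 3.07%), and without shPhf19 replicate 2 it was 15 higher and 1 lower (3.97% and 3.31%). The median change stayed between 0.22 and 0.30. Each such fit leaves a group with 1 array, which is assumed to vary like the other group.

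**Figure D1:**
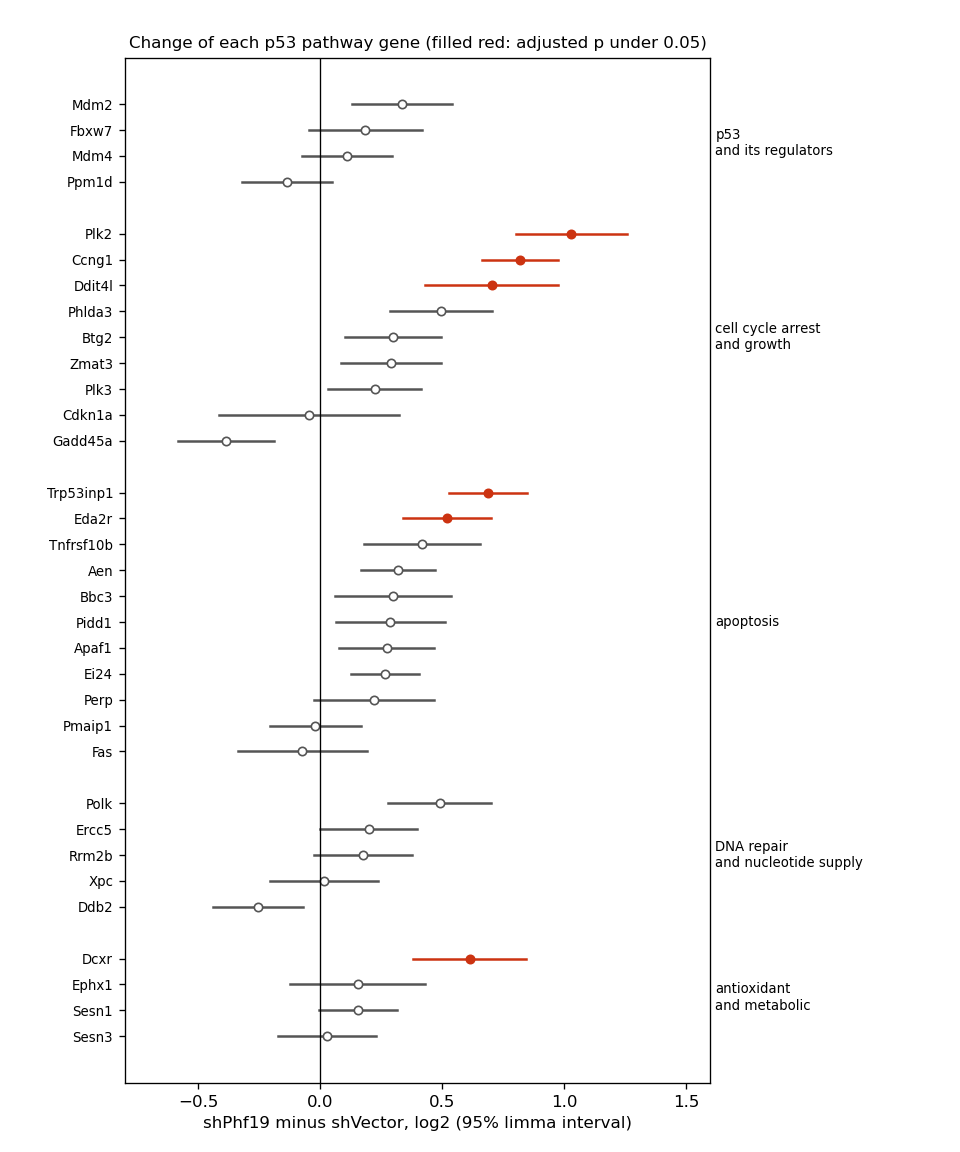
Change of each of the 33 measured p53 pathway genes, by role (x axis: shPhf19 minus shVector on the log2 scale; points: limma estimate of the representative probe set; lines: 95% limma interval; filled red: adjusted p under 0.05). The 6 genes called lie to the right of 0, 27 of the 33 points are above 0, and Gadd45a is the lowest at -0.38.

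Among genes of arrest and growth, 3 of 9 rose, none fell and 6 did not pass. Ccng1 encodes cyclin G1, a p53 target that feeds back on Mdm2. It was at 11.19 and 11.06 in shVector and at 11.97 and 11.91 in shPhf19 by probe set 1420827_a_at. The groups lay far apart compared with their replicates (change 0.82 ± 0.06, 95% interval 0.66 to 0.97, adjusted p = 0.00782). Its 2 other probe sets were apart in the same direction and fell just short of a call. They stood at 0.73 ± 0.12 (1450017_at, adjusted p = 0.0503) and 0.39 ± 0.07 (1450016_at, adjusted p = 0.0612).

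Plk2, a polo-like kinase gene that p53 induces, had the largest change in the list. Its probe set 1427005_at was at 8.39 and 8.53 in shVector and at 9.58 and 9.40 in shPhf19. That is a change of 1.03 ± 0.09 (95% interval 0.80 to 1.26, adjusted p = 0.00980). The second probe set, 1443780_at, went the other way, from 4.53 and 4.51 to 4.13 and 4.33 (-0.29 ± 0.11, adjusted p = 0.315). Both pairs of groups were apart, so the 2 probe sets of this gene disagreed in direction.

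Ddit4l encodes an inhibitor of mTOR signalling related to the stress protein Ddit4. It was at 7.15 and 6.93 in shVector and at 7.83 and 7.65 in shPhf19 by 1444139_at (0.70 ± 0.11, adjusted p = 0.0467). Its probe set 1439332_at was called as well, from 6.55 and 6.31 to 7.42 and 7.11 (0.83 ± 0.14, adjusted p = 0.0483). The remaining one, 1451751_at, was at 0.55 ± 0.09 (adjusted p = 0.0529), so all 3 were higher in both shPhf19 arrays. Ddit4l was the gene of the list with more than 1 called probe set.

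Cdkn1a, the CDK inhibitor p21 and the classical arrest gene of p53, did not change beyond its spread. By probe set 1424638_at it was at 9.43 and 8.99 in shVector and at 9.05 and 9.28 in shPhf19, so the groups overlapped. The change was -0.05 ± 0.15, with a 95% interval from -0.41 to 0.32. By 1421679_a_at it was at 7.64 and 7.63 in shVector against 7.53 and 7.44 in shPhf19 (-0.15 ± 0.08, adjusted p = 0.550). The groups of this second probe set were apart by a small margin.

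Phlda3, a repressor of Akt signalling, came nearest to a call among the other arrest and growth genes. It was at 8.91 and 8.72 in shVector and at 9.30 and 9.33 in shPhf19 (0.50 ± 0.09, adjusted p = 0.0579). Btg2, an antiproliferative gene, Zmat3, which encodes an RNA-binding zinc finger protein, and Plk3, another polo-like kinase gene, had changes between 0.22 and 0.30 with groups apart and no call. Gadd45a, a stress gene of growth arrest and repair, pointed down. It was at 9.40 and 9.52 in shVector and at 9.13 and 9.02 in shPhf19 (-0.38 ± 0.08, adjusted p = 0.103), and its groups did not overlap.

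**Figure D2:**
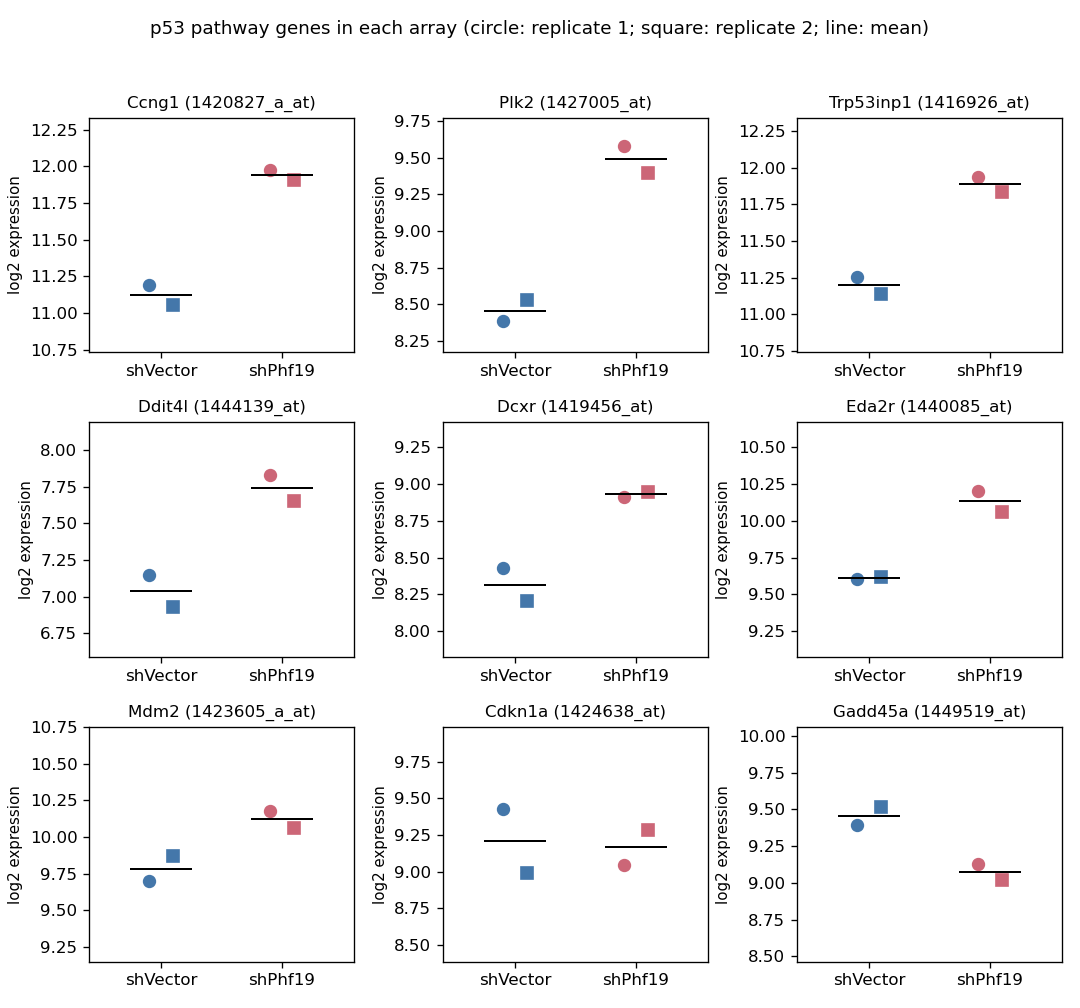
Log2 expression of 9 p53 pathway genes in each of the 4 arrays, by representative probe set (y axes span the same range of 1.6 log2 units but are centred per gene; circles: replicate 1; squares: replicate 2; lines: group means). The top and middle rows hold the 6 genes called higher; in the bottom row Mdm2 is apart without a call, Cdkn1a overlaps and Gadd45a is lower in both shPhf19 arrays.

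Among apoptosis genes, 2 of 11 rose, none fell and 9 did not pass. Trp53inp1 encodes a nuclear stress protein that promotes the apoptotic activity of p53. It was at 11.25 and 11.14 in shVector and at 11.94 and 11.83 in shPhf19 (1416926_at, 0.69 ± 0.07, adjusted p = 0.0108). Its dim second probe set, 1416927_at, was at 5.20 and 5.15 against 5.50 and 5.28 (0.22 ± 0.11, adjusted p = 0.500). Both probe sets were higher in both shPhf19 arrays.

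Eda2r encodes a death-domain-free receptor of the tumour necrosis factor family that p53 induces. It was at 9.61 and 9.62 in shVector and at 10.21 and 10.06 in shPhf19. The change of 0.52 ± 0.08 (limma adjusted p = 0.0327) was larger than the gap between the arrays of either group. That gap was wider in shPhf19 (SD 0.10) than in shVector (SD 0.01). Aen, the apoptosis-enhancing nuclease, was at 10.66 and 10.57 against 10.94 and 10.93 by 1423957_at (0.32 ± 0.06, adjusted p = 0.0815). Its other 3 probe sets had changes between 0.12 and 0.28, and 2 of them overlapped between the groups.

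Tnfrsf10b, the receptor of the death ligand TRAIL, was at 5.34 and 5.38 in shVector and at 5.71 and 5.85 in shPhf19 by 1421296_at (0.42 ± 0.10, adjusted p = 0.132). By 1422344_s_at, whose suffix marks probes that can hybridise to related transcripts, it was at -0.19 ± 0.11. Both probe sets were below the median level of all probe sets (5.75), and they disagreed in direction. The representative probe sets of Mdm4, Fbxw7, Sesn1 and Ddb2 carry the same suffix. Bbc3 (Puma, a killer protein of the Bcl2 family), Apaf1 (the scaffold of the apoptosome), Pidd1 (a death-domain protein that activates caspase 2) and Ei24 (a membrane protein of the endoplasmic reticulum) lay between 0.27 and 0.30 by their representative probe sets. All 4 had groups apart, and none passed. Perp, a membrane protein of desmosomes, was at 0.22 ± 0.10, also apart.

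The remaining apoptosis genes lay near 0. Pmaip1 (Noxa, another killer protein of the Bcl2 family) was at -0.02 ± 0.08, with a 95% interval from -0.20 to 0.17. Fas, a death receptor gene, had a low signal of 3.42 and 3.22 in shVector and 3.18 and 3.32 in shPhf19. At that level, within the lowest 25% of all probe sets, the value may be background, as the table has no detection calls.

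None of the 4 measured regulators of p53 passed in either direction. Mdm2 was at 9.70 and 9.87 in shVector and at 10.18 and 10.06 in shPhf19 by 1423605_a_at (0.34 ± 0.09, 95% interval 0.13 to 0.54, adjusted p = 0.156). Its groups were apart, but those of its 2 other probe sets overlapped (0.19 ± 0.17 and -0.06 ± 0.13). Mdm4 was at 9.83 and 9.72 in shVector and at 9.94 and 9.83 in shPhf19 by 1460542_s_at (0.11 ± 0.08). Its other 3 probe sets ran from -0.19 to -0.02. Fbxw7, a substrate receptor of an SCF ubiquitin ligase, was at 0.19 ± 0.10 and 0.17 ± 0.07. Ppm1d, the phosphatase Wip1 that dampens p53 signalling, was at -0.13 ± 0.08 and -0.02 ± 0.08. The feedback genes Mdm2 and Ppm1d thus had changes of opposite sign, and neither was called.

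No gene of DNA repair and nucleotide supply passed among the 5. Polk, the translesion polymerase kappa, was at 7.58 and 7.47 in shVector and at 8.05 and 7.98 in shPhf19 by 1449483_at (0.49 ± 0.09, adjusted p = 0.0606). Its dimmer probe set 1419501_at overlapped (0.02 ± 0.15). Ddb2, which recognises ultraviolet damage, pointed down by both of its probe sets. It was at 8.04 and 8.16 against 7.73 and 7.79 by 1425706_a_at (-0.33 ± 0.09, adjusted p = 0.166), and at 8.72 and 8.68 against 8.48 and 8.41 by 1436680_s_at (-0.25 ± 0.08). Its partner in damage recognition, Xpc, was at 0.02 ± 0.09 with overlapping groups. Ercc5, an endonuclease of excision repair, was at 0.20 ± 0.08 by its representative probe set and at -0.01 ± 0.09 by 1457713_at. Rrm2b, a p53-inducible subunit of ribonucleotide reductase, was at 0.18 ± 0.08 by its representative probe set. Its other probe sets ran from -0.19 to -0.01, and 1437476_at was lower in both shPhf19 arrays (-0.19 ± 0.10). These other probe sets of Ercc5 and Rrm2b were within the lowest 25% of all probe sets by level.

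Among the 4 antioxidant and metabolic genes, Dcxr rose and 3 did not pass. Dcxr encodes a reductase of dicarbonyls and L-xylulose. It was at 8.43 and 8.20 in shVector and at 8.91 and 8.95 in shPhf19 (0.61 ± 0.10, 95% interval 0.38 to 0.85, adjusted p = 0.0420). Sesn1 and Sesn3, the sestrins, which restrain mTOR signalling and oxidative stress, were at 0.16 ± 0.07 and 0.03 ± 0.08 by representative probe sets. Other probe sets of Sesn1 ran from -0.07 to 0.07. The other one of Sesn3 was at -0.17 ± 0.08, lower in both shPhf19 arrays. Ephx1, the microsomal epoxide hydrolase, was at 0.16 ± 0.12 with overlapping groups.

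Probe sets of a gene did not always give the same change. Of the 19 genes with more than 1 probe set, Plk2 had the widest gap between its probe sets, 1.32. Of the 63 probe sets, 49 were at or above the median level of all probe sets, and 37 of these had a change above 0 (median 0.22). Of the 14 below it, 5 had a change above 0 (median -0.02). All 7 called probe sets were among the 49. With the mean of a gene's probe sets in place of the highest one, the median change of the 33 genes was 0.18, and 7 genes rose and 1 fell. Gadd45a was the gene that fell (-0.38 ± 0.07, adjusted p = 0.0464), and Phlda3 joined the rises. That fit tests 18193 genes, fewer features than the main one, and 2772 of them had an unadjusted p under 0.05. How many of all genes it called was not counted, so its calls stand without a background.

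**Figure D3:**
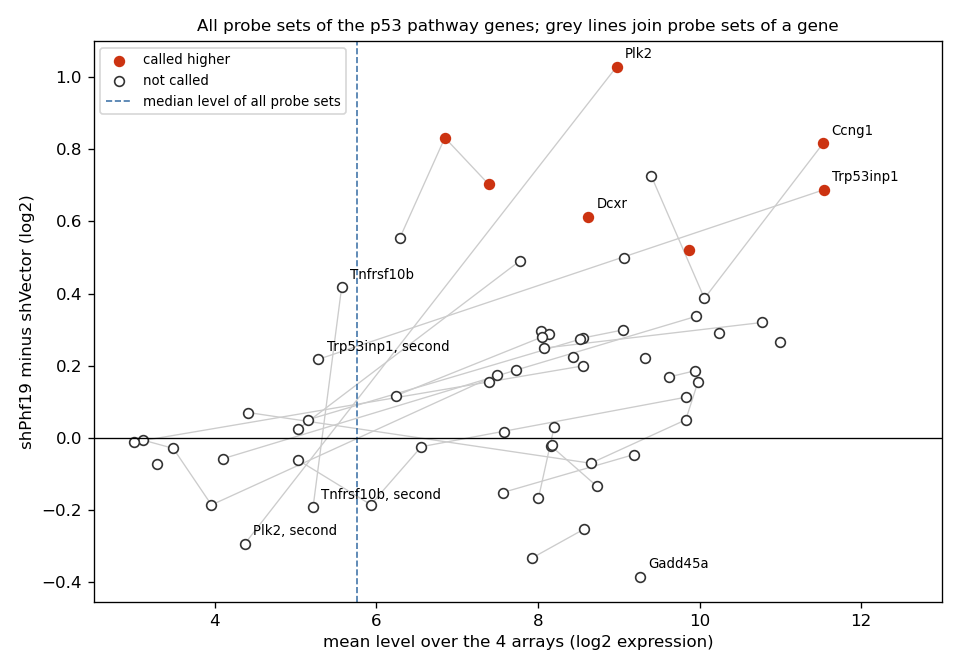
All 63 probe sets of the p53 pathway genes (x axis: mean log2 expression over the 4 arrays; y axis: shPhf19 minus shVector, log2; red: adjusted p under 0.05; grey lines join probe sets of 1 gene; dashed line: median level of all probe sets, 5.75). The 7 called probe sets lie right of the dashed line, and the second Plk2 probe set lies below 0 at the dim end.

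Genes of the wider pathway outside the list rose and fell in equal number. Of 90 such genes, 82 had a probe set of their own. The 82 include 5 CDK inhibitors of growth arrest, a class fixed apart from the reported p53 targets. Of these 82, 3 rose (3.66%, against 1.15% of all genes), 3 fell (3.66%, against 0.863%) and 76 did not pass. Their median change was 0.01, with 46 above 0 and 36 below. Both groups were apart in 26 with shPhf19 higher (21.3% of all genes) and in 19 with shPhf19 lower (22.2% of all genes). The difference between the lists was not tested.

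The 3 that rose were Cdkn1c, Dram1 and Setd7. Cdkn1c, the CDK inhibitor p57, belongs to the 5 CDK inhibitors and not to the reported p53 targets. It was at 6.46 and 6.77 in shVector and at 7.76 and 7.77 in shPhf19 (1.15 ± 0.12, limma adjusted p = 0.0135). Dram1, a lysosomal membrane protein that p53 induces in autophagy, was at 4.67 and 4.82 against 5.41 and 5.58 (0.75 ± 0.11, adjusted p = 0.0329). Setd7, a lysine methyltransferase reported to modify p53, was at 0.63 ± 0.10 (adjusted p = 0.0386) by 1 probe set and at 0.05 ± 0.09 by the other. Cdkn1c and Dram1 each had 1 probe set, apart between the groups.

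The 3 that fell were Cdkn2a, Tnfaip8 and Abhd4. Cdkn2a encodes p16 and p19Arf, the latter an inhibitor of Mdm2. It was at 6.55 and 6.72 in shVector and at 5.75 and 5.64 in shPhf19 (-0.94 ± 0.10, adjusted p = 0.0153). The probe set was not assigned to either product. Tnfaip8 was at -0.55 ± 0.09 (adjusted p = 0.0469) and its other probe set also fell (-0.79 ± 0.11, adjusted p = 0.0259). Abhd4 was at -0.43 ± 0.06 by 1439259_x_at (limma adjusted p = 0.0365). Its other probe set, 1416315_at, pointed the same way without a call (-0.28 ± 0.08, limma adjusted p = 0.214).

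Genes that act upstream of p53 in damage signalling did not pass. None of the 13 genes of damage kinases and sensors passed, and their median was 0.01. The nearest to a call was Chek2, a checkpoint kinase gene, at 0.24 ± 0.07 (adjusted p = 0.197). Of the 10 genes of the apoptosis machinery none passed (median 0.02). Of 15 modifiers of p53, 13 had a change above 0 (median 0.10), with Setd7 rising and Cdkn2a falling. Of the 37 further reported targets, 1 rose and 2 fell, with a median of -0.01. Of these 37, 17 had a change above 0 and 20 below.

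**Figure D4:**
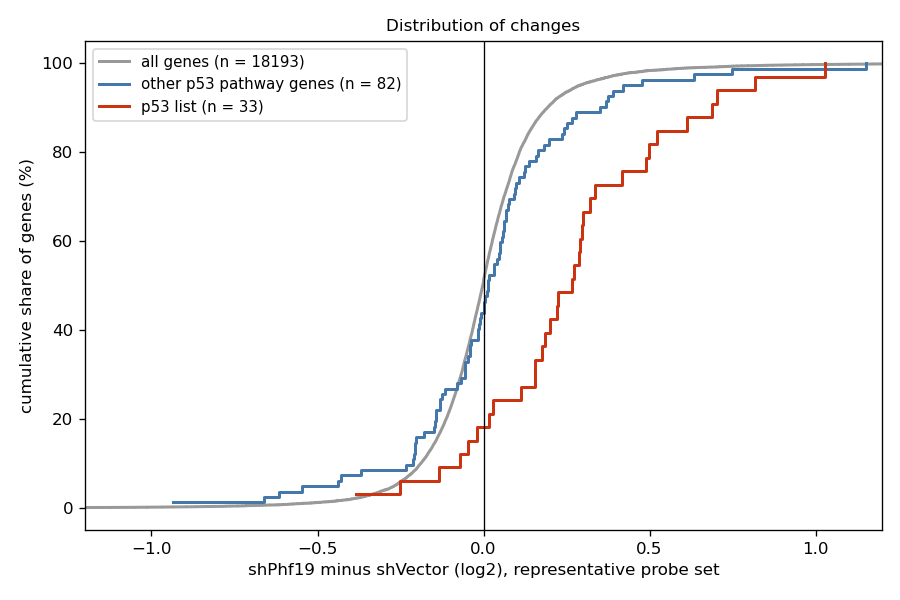
Cumulative share of genes (y axis, %) by their change (x axis: shPhf19 minus shVector, log2, representative probe set; the axis ends at -1.2 and 1.2) for all 18193 genes, the 82 other p53 pathway genes and the 33 genes of the p53 list. The list's curve lies to the right with a median of 0.27, whereas the other pathway genes have a median of 0.01 and all genes 0.00.

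Markers of the labelled cell type were high on every array. The 8 embryonal carcinoma markers averaged 12.7 in each array, and none passed. The average hides changes of both signs. Nanog (-0.26 ± 0.05) and Dppa5a (-0.07 ± 0.04) were lower in both shPhf19 arrays, and Fgf4 (0.19 ± 0.06) and Utf1 (0.15 ± 0.06) higher. Over all genes 22.2% lay apart lower and 21.3% higher. Of 9 endoderm markers, 2 rose, Gata6 (1.19 ± 0.13, adjusted p = 0.0149) and Dab2 (1.40 ± 0.12, adjusted p = 0.00863). The list averaged 6.24 to 6.27 in shVector and 6.51 to 6.56 in shPhf19. However, 4 of the 9 had a change above 0 and 5 below, with a median of -0.001. Gata4 (0.38 ± 0.10) and Sox17 (0.27 ± 0.11) were higher in both shPhf19 arrays without a call, and Sox7, Afp and Sparc lower in both. The part of endoderm markers in the changes of p53 pathway genes was not tested. The 7 fibroblast markers averaged 4.75 to 4.92 and the 3 blood markers 4.80 to 5.01, and none passed; of 6 trophoblast markers Tfap2c fell (-0.85 ± 0.10, adjusted p = 0.0177). Of 3 growth markers, Mki67, Pcna and Top2a, none passed, at -0.14 to -0.01. The difference between 3' and 5' beta-actin signal, a sign of RNA integrity, was 1.16 and 0.83 in shVector and 0.92 and 1.03 in shPhf19, so it overlapped between the groups.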

How the data were processed

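Total RNA of F9 cells was measured on 4 Affymetrix mouse 430 2.0 arrays, 2 per group, per the labels. The deposited table holds 1 value per probe set and array, taken as log2 expression from its range (2.31 to 14.5 without controls); array medians of 5.75 to 5.76 show that the authors had normalized the arrays. Which software made the values was not given in the sources used here. The number of arrays limits the precision.

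After 64 control probe sets were left out, limma 3.58.1 in R 4.3.3 (lmFit, eBayes with an intensity trend) compared shPhf19 with shVector over 45037 probe sets without a filter, two-sided, with Benjamini-Hochberg adjustment and a threshold of 0.05. Platform annotation gave 34945 probe sets 1 symbol, 932 several and 9160 none. A gene was represented by its probe set of highest mean. The script was tested on simulated data. The members and lists were chosen with earlier results of these data known. Every member is accounted for. Per-array values are given for members with a call and for Mdm2, Mdm4 and Cdkn1a. They are also given for members whose groups did not overlap with a change of at least 0.3 in either direction. Further pathway genes are named where called, and any other, such as Chek2, was chosen after its values were seen. Alternatives were other normalizations, no trend, filters, replicate blocks, each array left out and the mean of probe sets.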

Additional observations from a re-analysis of the deposited data

How the results depend on the processing

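The median change of the 33 genes stayed between 0.22 and 0.30 under the alternatives tried, except the mean of a gene's probe sets (0.18). Counts of calls moved more. For the list's probe sets, 11 rose with quantile normalization, with median centring and without the lowest 25% of probe sets, and 12 without the lowest 50%. Over all probe sets, 492, 443, 451 and 444 rose in these fits, in that order, against 374 in the main fit. The filtered fits tested 33778 and 22519 probe sets, and the others 45037. The list's gains came from further probe sets of Ccng1 and Ddit4l and from Phlda3 and Polk. Without a variance trend, 3 probe sets (3 genes) of the list rose, 1 other pathway gene fell, and 229 probe sets rose and 151 fell in all, against 374 and 262. With the mean of a gene's probe sets, 1 gene of the list fell, and 5 other pathway genes rose and 6 fell. The calls over all genes in that fit were not counted. The groups share replicate numbers, and deviations of same-numbered arrays correlated at -0.20. With so few arrays per group, that value implies the opposite sign for arrays of different number. It cannot decide whether same-numbered arrays were handled together, so the fit with a replicate block is not set aside. With a replicate block, which leaves 1 residual degree of freedom fewer, limma called 0 probe sets higher and 0 lower, with 3890 at an unadjusted p under 0.05, and 0 genes of either list. With a crossed replicate block, chosen after seeing the data, 337 probe sets rose and 259 fell, 6 of the list's among them, and 1 other pathway gene rose. With any 1 array left out, every count was 0, with 2539 to 6942 probe sets at an unadjusted p under 0.05. Ccng1, Plk2 and Trp53inp1 kept their calls in 6 of 11 alternatives, Eda2r and Dcxr in 5 and both Ddit4l probe sets in 4.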
